A study of Mus musculus with 8 samples.

Results

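Accessible chromatin was described around 8 genes that drive or stop the cell cycle in granulosa cells of the mouse, which line the ovarian follicle around the egg and make oestradiol. The genes were the D-type cyclins Ccnd1, Ccnd2 and Ccnd3, the E-type cyclin Ccne1, the kinase Cdk4, and the inhibitors Cdkn1a (p21), Cdkn1b (p27) and Cdkn1c (p57). The genes were given by name, for what they do, and are 8 of 21627 protein-coding genes. All peaks that overlapped a gene body or the 50 kb on either side of it were taken, on GRCm38. This gave 102 of the 98245 regions in the whole series, where a region is the union of the peak intervals of all 8 libraries that share 1 bp or more.

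D-type cyclins bind CDK4 or CDK6 and start the phosphorylation of the retinoblastoma protein, and cyclin E with CDK2 carries the cell into DNA synthesis. The CIP/KIP inhibitors CDKN1A, CDKN1B and CDKN1C bind these complexes and hold the cell out of the cycle. In the ovary, cyclin D2 is known as the D cyclin that follicle-stimulating hormone induces in dividing granulosa cells. After the surge of luteinising hormone (LH) the cells stop dividing and luteinise, a step in which CDKN1A and CDKN1B are known to accumulate.

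Accessibility was measured by ATAC-seq, in which the transposase Tn5 cuts and tags open DNA. The mice were 21 days old and received 5 IU of eCG (equine chorionic gonadotropin, named PMSG in the sample titles), which stimulates follicle growth. They were killed 46 h later, or first received 5 IU of human chorionic gonadotropin (hCG), a ligand of the LH receptor, and were killed 6 h after that. The LH experiment used wild-type mice of the strain CBA x C57BL/6 F1, with 2 libraries titled PMSG, before hCG, and 2 titled hCG. The PR experiment used the strain C.129S7(B6)-Pgrtm1Bwo/OmcJ, with 2 wild-type (WT) libraries and 2 libraries with a knockout (KO) of the progesterone receptor gene Pgr, all after eCG and hCG. Each library pooled granulosa cells of 2 to 3 mice, and a number after a group, as in hCG 1, is its replicate. The time tags of the LH libraries go against their titles, since the PMSG libraries are tagged 6 h and the hCG libraries 0 h. Titles and source names were followed, so every direction between hCG and PMSG rests on them. Strain and experiment cannot be told apart, and no group of one experiment was ranked against a group of the other.

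The libraries held between 55654 and 84313 intervals, the most in WT 2 and the fewest in KO 2, and read depth is unknown. Both WT lists were longer than both KO lists, at 80137 and 84313 intervals against 58851 and 55654. Markers were scored for a peak at the promoter or within 1 kb of a gene end, called a promoter peak here. Of 10 granulosa markers, 9 had one in every library, and Nr5a2 had none in any. Blood cell markers had a promoter peak for 0 to 1 of 5 genes per library, endothelial markers for 1 of 4 (Cdh5), oocyte markers for 2 of 6 (Gdf9 and Ooep) and theca markers for 1 to 2 of 4. Ptprc, Pecam1, Zp3 and Insl3 had none in any library. The Pgr promoter region was held in all 8 libraries, KO included, and a peak there does not test the allele. The pooled cells do not separate a change in all cells from a change in some of them.

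Promoter sequences are shown first for the genes on which the results turn. They are the 250 bases before a start, from RefSeq, GRCm38.p6, written 5′ to 3′ on the strand of the gene, which is the plus strand for each gene shown. Capitals mark searched motifs on either strand. Cdkn1a and Ccnd3 each have 2 starts in the table, which differed in accessibility. The window of the first Cdkn1a start, chr17:29090729-29090978, held no peak in any library, and that of the second, chr17:29093519-29093768, held one in all 8. The windows of Ccnd3, chr17:47504801-47505050 and chr17:47593217-47593466, were both held in all 8 libraries and ranked in opposite directions between hCG and PMSG. Cdk4, chr10:127063285-127063534, and Cdkn1b, chr6:134920151-134920400, had 1 start each.
Cdkn1a first start: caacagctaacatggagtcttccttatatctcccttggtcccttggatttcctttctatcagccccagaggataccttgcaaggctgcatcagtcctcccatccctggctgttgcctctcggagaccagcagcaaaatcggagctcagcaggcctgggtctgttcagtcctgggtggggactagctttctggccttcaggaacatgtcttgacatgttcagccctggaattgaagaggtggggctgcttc
Cdkn1a second start: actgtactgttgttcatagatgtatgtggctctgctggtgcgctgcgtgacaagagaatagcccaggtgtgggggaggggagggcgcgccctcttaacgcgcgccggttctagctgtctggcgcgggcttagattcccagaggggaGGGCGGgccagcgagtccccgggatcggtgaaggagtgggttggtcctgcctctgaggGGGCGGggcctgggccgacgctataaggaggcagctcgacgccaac
Ccnd3 first start: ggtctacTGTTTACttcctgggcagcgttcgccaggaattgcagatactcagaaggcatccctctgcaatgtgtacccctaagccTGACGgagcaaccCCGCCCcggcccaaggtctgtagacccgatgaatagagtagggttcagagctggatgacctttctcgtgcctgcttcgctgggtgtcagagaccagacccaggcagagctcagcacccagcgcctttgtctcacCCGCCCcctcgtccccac
Ccnd3 second start: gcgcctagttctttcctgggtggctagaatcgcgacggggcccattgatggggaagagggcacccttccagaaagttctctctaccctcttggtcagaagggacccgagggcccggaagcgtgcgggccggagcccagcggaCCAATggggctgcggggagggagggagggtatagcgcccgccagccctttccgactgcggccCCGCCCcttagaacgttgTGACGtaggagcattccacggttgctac
Cdk4 start: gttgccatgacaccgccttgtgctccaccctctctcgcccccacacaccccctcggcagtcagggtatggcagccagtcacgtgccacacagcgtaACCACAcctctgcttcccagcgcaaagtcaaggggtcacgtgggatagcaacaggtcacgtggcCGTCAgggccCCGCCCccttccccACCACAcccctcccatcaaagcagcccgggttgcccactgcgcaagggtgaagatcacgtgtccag
Cdkn1b start: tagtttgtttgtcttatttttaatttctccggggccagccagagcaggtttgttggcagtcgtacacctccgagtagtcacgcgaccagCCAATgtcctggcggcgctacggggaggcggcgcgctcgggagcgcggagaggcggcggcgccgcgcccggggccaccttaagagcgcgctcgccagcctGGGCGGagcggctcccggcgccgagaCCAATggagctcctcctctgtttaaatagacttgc

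The GC box GGGCGG, bound by SP1, stood in 6 of the 7 windows found for 5 of the 8 genes, and stands in 32.7% of all 32851 promoter windows of that length. The first Cdkn1a window, without a peak, held none of the 12 motifs searched. TGACG, the core of the cAMP response element, stood in both Ccnd3 windows and in the Cdk4 window (17.8% of all windows). CCAAT stood in the second Ccnd3 window and at 2 positions before the Cdkn1b start (33.8% of all windows). The forkhead motif TGTTTAC stood only before the first Ccnd3 start (3.17% of all windows), and the RUNX motif TGTGGT at 2 positions before Cdk4 (14%). None of the 7 windows held the full cAMP response element TGACGTCA (1.55%), the steroid receptor palindrome ACANNNTGT (5.84%), the E2F motifs TTTGGCGC (0.417%) and TTTCCCGC (0.895%), the NR5A motif CAAGGTCA (1.33%), the GATA motif AGATAA (9.99%) or the AP-1 motif TGACTCA (4.46%). The matches did not share bases with each other in the windows shown, and TGACG is contained in TGACGTCA. These are matches of letters in a window and no test of binding.

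Open regions around the 8 genes were counted in each library. Of the 102 regions, 48 were held by all 8 libraries, which is 47.1% beside 37.9% of all regions, and 16 were held by 1 library. PMSG libraries held 59 and 61 of the 102 regions, hCG libraries 71 and 66, WT libraries 82 and 86, and KO libraries 61 and 56. Ccnd3, the longest gene at 94.6 kb, had the most regions, 18, of which 11 lay inside the gene. Cdkn1a had 15 regions, Ccnd2 14, Cdkn1c 13, Cdk4 and Cdkn1b 12 each, and Ccnd1 and Ccne1 9 each. Of the 102 regions, 24 lay inside a member's body, and 10 of these were at its promoter. The windows also held 26 other genes, 9 of them around Cdk4 and none around Ccne1, and a region in a window is not thereby assigned to the named gene.

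**Figure D1:**
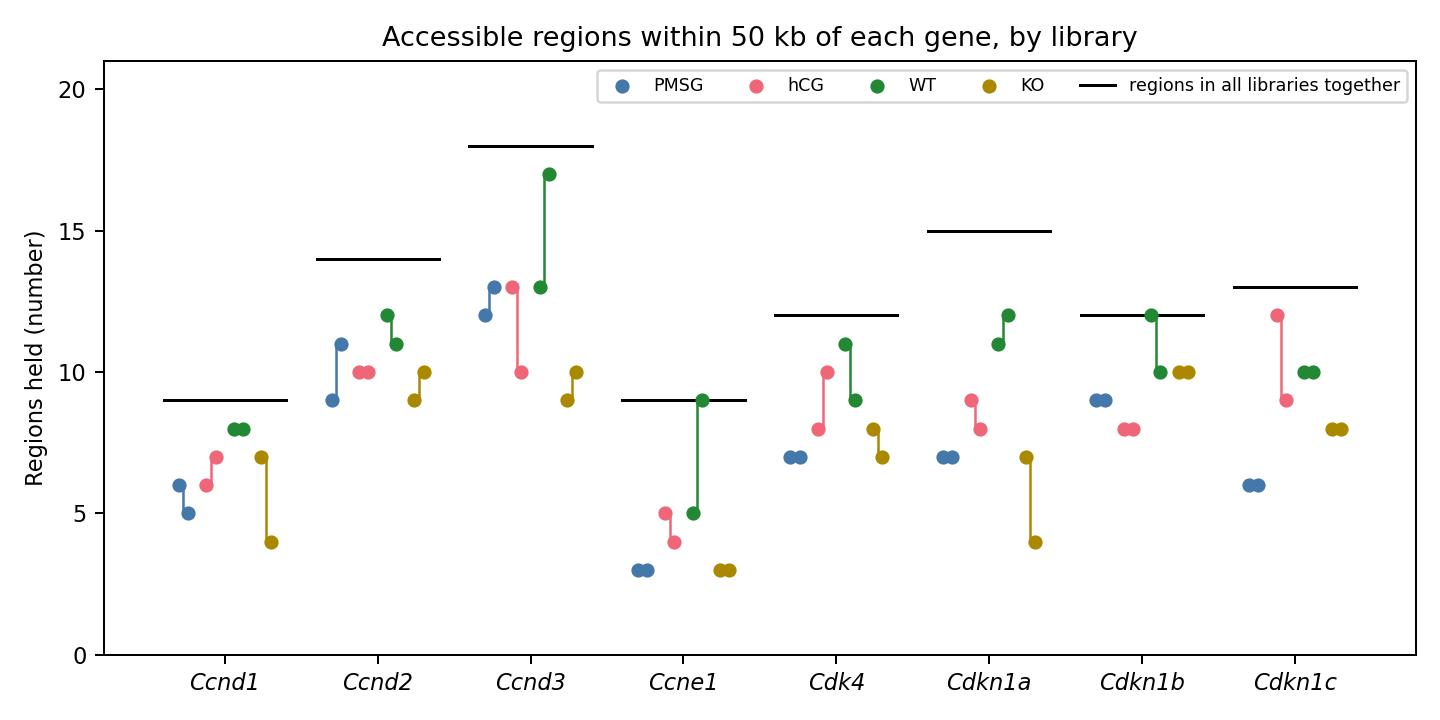
Number of accessible regions held by each library (y axis) in the window of each of the 8 genes (x axis). Points are single libraries coloured by group, a vertical line joins the 2 libraries of a group, and a black bar is the number of regions over all 8 libraries. Both WT libraries lie above both KO libraries for 7 of the 8 genes, all but Cdkn1b. Over all regions of the series WT held 79.6% and 83.6%, and KO 59.4% and 55.5%. Both hCG libraries lie above both PMSG libraries for 4, Ccne1, Cdk4, Cdkn1a and Cdkn1c. For Cdkn1b they lie under them, at 8 and 8 against 9 and 9. Over all regions hCG held 65.6% and 62.6%, and PMSG 57.3% and 58%. How many of all genes separate in this way was not counted, so these numbers are no result about the members.

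The strongest region around each gene was usually not its own promoter. Ranked by the mean percentile within the lists, Ccnd2 led with a region 15.2 kb from the gene, at the end of Tigar, at a mean percentile of 97.1. The leading Ccne1 region lay 36.1 kb from the gene at 96.3, and that of Cdkn1c 32.3 kb away at 94.6. The leading region of Ccnd1 lay 14.3 kb away at the end of LTO1, that of Ccnd3 11.2 kb away at the end of Bysl, and that of Cdk4 32.6 kb away at the end of Tsfm. Those of Cdkn1b and Cdkn1a lay 35.9 kb and 11.7 kb away, with mean percentiles of 83.4 and 75.2. This order depended on the value ranked. The promoters of Cdk4 and Cdkn1a had a higher −log10 q than these leading regions in all 8 libraries. In PMSG it was 763 and 752 against 70.7 and 65.6 for Cdk4, and 243 and 274 against 81.3 and 75.1 for Cdkn1a. How often other genes show this was not counted.

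The comparison of hCG with PMSG asks what an LH-like stimulus changes in the chromatin. For the 7 genes other than Ccnd1, at least 1 promoter region was held in all 8 libraries, so the difference was one of rank, not of presence. The rank was the percentile of the authors' fold enrichment among the 40780 regions that all 4 LH libraries hold, and a region was called higher in a group if both of its libraries lay above both of the other group. Of 9 promoter regions, 8 ranked higher in PMSG (88.9%) and 1 in hCG. The background was in the same direction, since 52.4% of all 12616 shared promoter regions ranked higher in PMSG and 18% in hCG. The median difference, hCG minus PMSG, was -11.5 percentile points over the 9 promoters and -4.43 over all promoters. No region was tested singly, and with 2 libraries a group the smallest two-sided p of an exact permutation test is 1 in 3.

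Cdk4, the kinase partner of the D cyclins, had a promoter that ranked lower in both hCG libraries. Its fold was 15.2 and 15.3 in PMSG and 10 and 9.63 in hCG, and its rank percentile 80.6 and 78.6 against 52.7 and 47.8. The groups did not overlap, and the mean difference was -29.4 points. A difference this far or farther towards PMSG was found in 3.39% of all shared promoters. Such shares count only differences of the same sign, here and below. By −log10 q the difference was -4.92 points, with percentiles of 98.8 and 98.6 in PMSG and 94.7 and 92.9 in hCG. The same interval was wider in hCG, at 1285 and 1482 bp against 800 and 808 bp in PMSG. At this promoter width and rank thus went opposite ways. Over the 8 genes, 38 of the 50 shared regions were wider in hCG (76%) and 2 in PMSG (4%), beside 64.2% and 11.8% of all shared regions. Of the 16 regions ranked higher in hCG 15 were also wider there, and of the 24 ranked higher in PMSG 15 were wider in hCG and 2 in PMSG. A region 1.86 kb above Cdk4, at the end of Tspan31, followed the promoter, with folds of 10.2 and 12.1 in PMSG and 7.5 and 7.03 in hCG.

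Among the inhibitors, the promoter of Cdkn1c differed most in rank over all 4 libraries, and a single library carried much of this. Its fold was 12.8 and 12.8 in PMSG and 2.32 and 8.9 in hCG. The value of hCG 1 stood apart at a percentile of 0.108, in an interval of 740 bp whose −log10 q was 10.4. Against hCG 2 alone, at percentile 41, both PMSG libraries still ranked higher, at 65.7 and 62.7. The mean difference of -43.6 points was matched or passed by 0.571% of shared promoters. Without hCG 1 it was -23.2 points, beside -23.7 at the Cdkn1a promoter, so the order of these inhibitors rested on that library. At the second Cdkn1a start the fold was 9.26 and 9.94 in PMSG and 6.82 and 6.13 in hCG, a difference of -20.3 points (10% of promoters as far). At Cdkn1b it was 12.1 and 12 against 9.91 and 9.16, a difference of -11.5 points (27% as far) that was -7.4 without hCG 2.

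By fold, the cyclin promoters differed by less than those of Cdk4 and Cdkn1c, and in both directions. Ccnd3 had 14.7 and 14.3 in PMSG and 10.3 and 10.7 in hCG at its second start, a difference of -18.7 points (12.3% of promoters as far). Its first start was the exception among the 9 promoters, with folds of 3.73 and 3.39 in PMSG and 4.99 and 5.37 in hCG, a difference of 8.05 points (11.6% as far). Both starts are the ones whose sequences are printed above, and the first is the weaker by fold in all 8 libraries. Ccne1 had 16.9 and 17 in PMSG and 13.4 and 12.7 in hCG, a difference of -10.1 points (30.6% as far). Ccnd2, the cyclin of follicle growth, had 2 adjoining regions at its end on the side of higher coordinates, with low folds between 3.2 and 5.6 in the LH libraries and differences of -5.23 and -2.1 points (46.6% and 59.7% as far), the second -1.36 without PMSG 1. By −log10 q the same 2 regions differed by -32.8 points (61.8 and 64.6 in PMSG, 31.6 and 29.3 in hCG) and -25.3 points (54.4 and 49.1 against 31.2 and 21.8). The direction was the same, and the size depended on which of the authors' values was ranked.

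Ranked by the authors' −log10 q instead of the fold, 5 of the 9 promoters ranked higher in PMSG and 1 in hCG, beside 42.1% and 26.7% of all shared promoters. The calls of the second Ccnd3 start, Ccne1 and Cdkn1a were lost under this ranking, while those of Cdk4, Cdkn1b, Cdkn1c, both Ccnd2 regions and the first Ccnd3 start were the same. The sizes changed: Cdk4 and Cdkn1b differed by -4.92 and -2.96 points, and Cdkn1c and the first Ccnd3 start by -47.3 and 33.7 points. Without hCG 1 the Cdkn1c difference was -13 points and without hCG 2 it was -81.7, and the Cdkn1b difference was -1.55 without hCG 2.

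Ccnd1 was unlike the other members at its ends. Its end on the side of higher coordinates was touched by 1 interval, of 110 bp with a fold of 3.65, at chr7:144939724-144939833 in WT 2. The nearest region inside the gene, chr7:144937573-144938179, was held by all 8 libraries, with folds of 9.37 and 10.8 in PMSG and 7.49 and 7.53 in hCG, higher in PMSG. In the PR experiment that region had folds of 9.2 and 9.99 in WT and 8.51 and 7.26 in KO, with no call by rank. Ccnd1 was the only member with no region held by both libraries of a group and neither of the opposing group, with all peaks and 50 kb windows. With a −log10 q of 20 or more it had 2 WT-only regions, and with coverage of at least 50% of a region 1 hCG-only region.

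**Figure D2:**
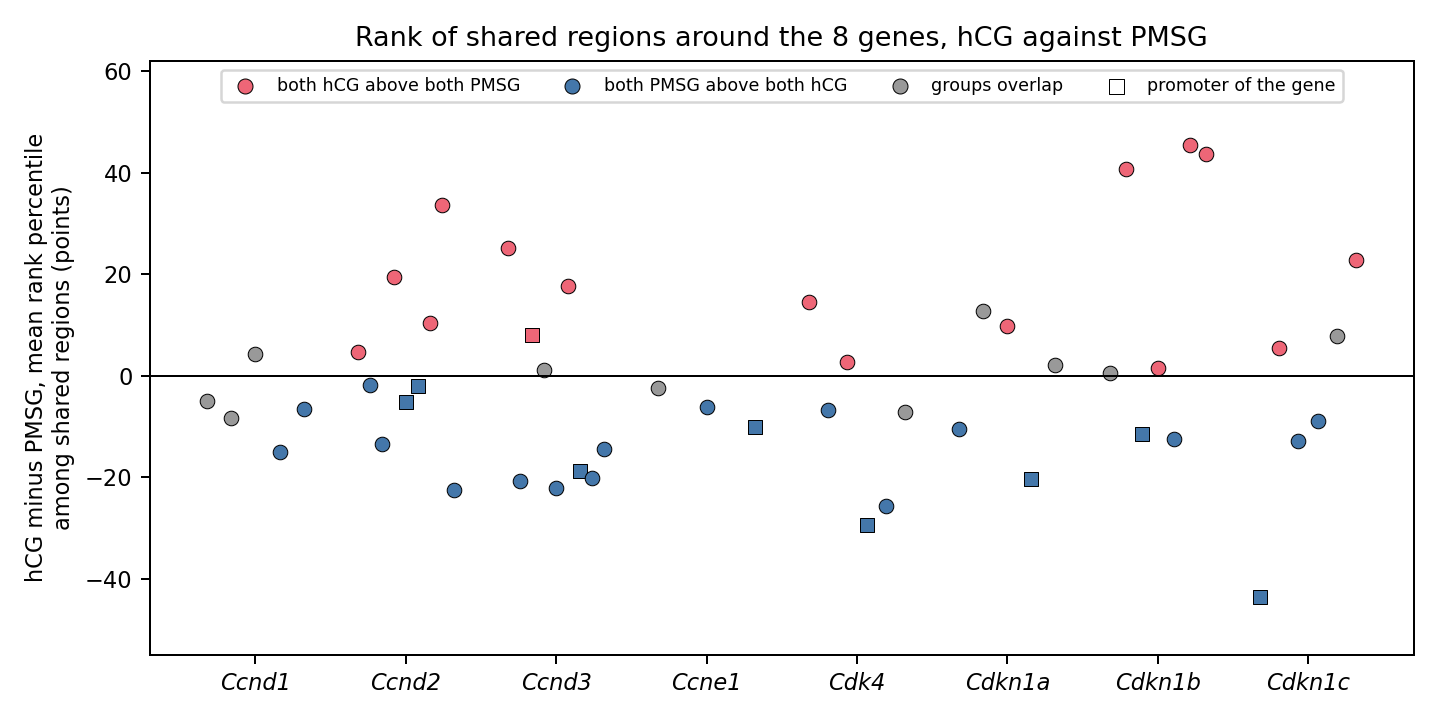
Difference in rank percentile, hCG minus PMSG (y axis, percentile points among the shared regions), for each shared region in order of coordinate within each gene (x axis). Each point is 1 region as the mean of 2 libraries a group, squares are the gene's own promoter, and colours mark whether the libraries of the groups overlap. Of the 9 squares, 8 lie under 0, and 3 regions of Cdkn1b lie above 40.

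Away from the promoters the direction was more even, and by fold Cdkn1b had the 3 largest differences towards hCG among the members. Of 29 shared regions outside any promoter, 13 ranked higher in hCG and 10 in PMSG (44.8% and 34.5%), beside 39.1% and 34.8% of all 28164 such regions. Over all 50 shared regions 16 ranked higher in hCG and 24 in PMSG (32% and 48%, beside 32.5% and 40.2% of all). These counts lie near the background and are no result about the members as a set. Within 10 kb of the genes, where the 9 promoters lie, 5 of 22 shared regions ranked higher in hCG and 16 in PMSG (22.7% and 72.7%). Of the 16, 8 are the promoters already described, and 52.4% of all shared promoters ranked higher in PMSG. The share among all regions this near to a gene was not counted, so an excess is not shown.

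Cdkn1b, the p27 inhibitor, had 3 distal regions that ranked higher in hCG while its promoter ranked lower. The region at chr6:134903956-134904450, 16.0 kb below the gene, had folds of 8.54 and 8.06 in PMSG and 11.8 and 12 in hCG. The region at chr6:134953896-134954514, 28.4 kb above the gene, had 9.48 and 7.98 against 12.1 and 14. The region at chr6:134961463-134962564, 35.9 kb above it, had 8.21 and 12 against 14.8 and 14. In each of the 3 regions both hCG libraries lay above both PMSG libraries, and the group means differed by 40.7, 45.5 and 43.6 percentile points. Differences this far or farther towards hCG were found in 4.68%, 3.41% and 3.85% of all shared regions. All 3 kept the call when ranked by −log10 q, with differences of 25.3, 24.9 and 50.6 points, and a region 27.3 kb below Cdkn1a, with no call by fold, then differed by 39.2 points. By fold, the farthest of the 3 regions differed by 29.2 points without PMSG 1 and by 57.8 without PMSG 2. It was also wider in hCG, at 1028 and 1014 bp against 584 and 390 bp. Presence differed in both directions in the same stretch: chr6:134946013-134946433, 20.5 kb above the gene, was hCG-only with folds of 8.35 and 7.9, and chr6:134951314-134951721, 25.8 kb above it, was PMSG-only with folds of 6.92 and 5.71. The PMSG-only region was held after hCG in the PR experiment by WT 1 and KO 2, with folds of 4.45 and 4.35. The region below the gene lies 5.76 kb from the end of Gpr19, and those above lie 19.4 kb and 27.5 kb from Apold1.

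**Figure D3:**
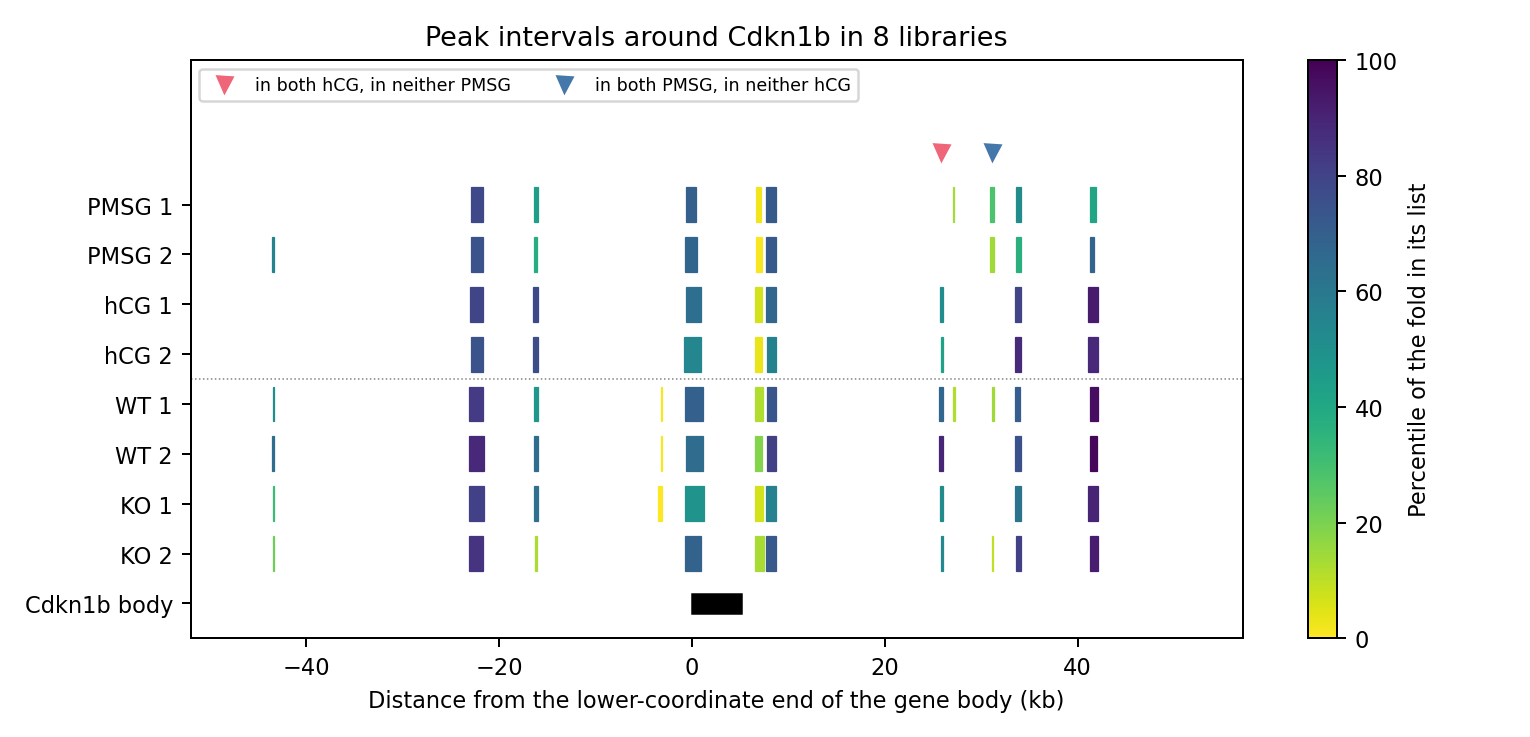
Peak intervals of each library (rows) around Cdkn1b against the distance in kb from the end of the gene body with the lower coordinate (x axis), coloured by the percentile of the authors' fold within that list. Triangles mark hCG-only and PMSG-only regions, and the black box is the gene body. The 3 distal regions described in the text are darker in the hCG rows than in the PMSG rows, and the promoter at the left end of the box is present in all rows.

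Ccnd2 had distal regions in both directions. The region 28.9 kb above the gene had folds of 8.29 and 5.57 in PMSG and 10.5 and 9.59 in hCG, a difference of 33.6 points that 7.22% of shared regions reached, and of 22.3 without PMSG 2. The region 35.9 kb above it went the other way, with 9.18 and 13 in PMSG and 7.98 and 6.92 in hCG, a difference of -22.6 points that was -36 without PMSG 1 and -9.3 without PMSG 2. Both calls were the same by −log10 q. Inside the gene, a region at chr6:127142170-127142916 had 5.23 and 6.86 in PMSG and 6.92 and 8.49 in hCG, and this call was lost by −log10 q. The body and flanks of Ccnd2 thus held changes of both signs, and so did those of Ccnd3, with 5 regions higher in PMSG and 3 higher in hCG. The farthest of these towards hCG, 36.1 kb below the gene and inside AI661453, had 6.77 and 8.28 in PMSG against 8.85 and 10.1 in hCG. Towards PMSG, an intragenic region at chr17:47511082-47511636 had 15.2 and 16.1 against 11 and 10.8, a difference of -22.1 points. The region at the end of Phlda2, in the Cdkn1c window, ranked higher in hCG, with 5.2 and 5.03 in PMSG and 6.89 and 7.98 in hCG.

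Presence and absence were compared next. Of the 85 regions held by at least 1 LH library, 11 were hCG-only (12.9%), that is, in both hCG libraries and neither PMSG library, beside 17.6% of all 80889 regions. PMSG-only regions numbered 6 (7.06%), beside 10.3%. The share of the members was thus under the background in both directions, but without hCG 2 the hCG-only regions numbered 18 of 81 (22.2%), beside 22.2% of all. Of the 8 genes, 7 had an hCG-only region and 4 a PMSG-only region, beside 54.6% and 35.9% of all protein-coding genes.

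With all peaks, Cdkn1c had 3 hCG-only regions and no PMSG-only region. It had 1 hCG-only region with lists of equal length, with a −log10 q of 20 or more, and with coverage of at least 50%, so its count did not stand out under those settings. The region at chr7:143475996-143476324, 14.9 kb above the gene and inside Slc22a18, had folds of 6.74 and 6.69 in hCG. The other two were weaker, at 4.68 and 5.19 for chr7:143445408-143446078, 12.3 kb below the gene, and 2.38 and 2.78 for chr7:143459341-143459887, inside it. The last of these stood at percentiles of 0.558 and 1.04 within its lists, among the weakest intervals, and was held in the PR experiment by both WT libraries and KO 1.

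**Figure D4:**
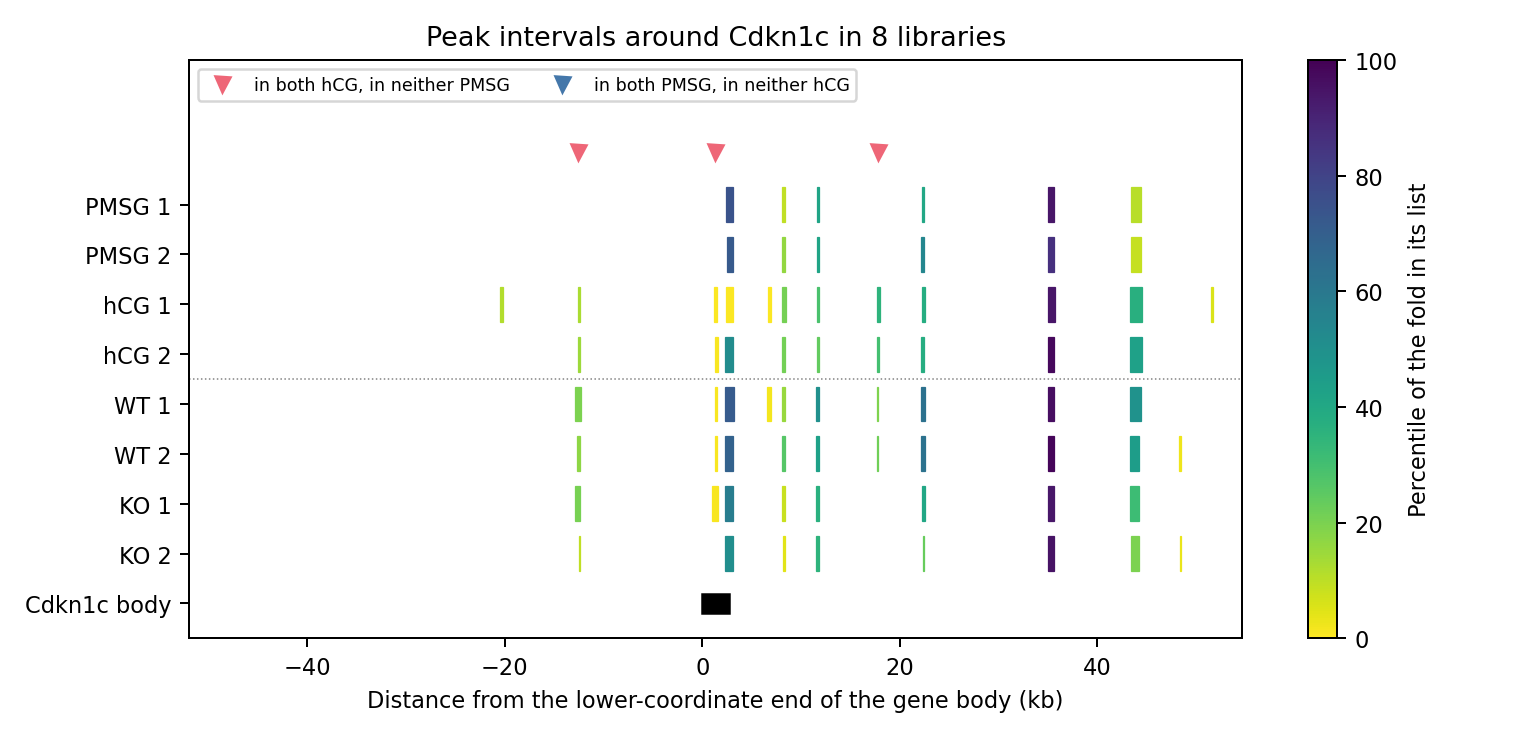
Peak intervals of each library (rows) around Cdkn1c against the distance in kb from the end of the gene body with the lower coordinate (x axis), coloured by the percentile of the authors' fold within that list. Triangles mark the 3 hCG-only regions, and the black box is the gene body. The promoter lies at the right end of the box, where the interval of hCG 1 is pale, at a fold of 2.32, and those of the other 7 libraries are darker, at folds between 7.82 and 12.8.

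Cdkn1a, the p21 inhibitor, had 2 hCG-only and 2 PMSG-only regions, all of low fold. The hCG-only regions were chr17:29060805-29061266, 29.7 kb below the gene, with 2.77 and 3.04, and chr17:29134505-29134772, 33.8 kb above it inside Rab44, with 4.56 and 6.35. The PMSG-only regions had 3.8 and 3.69 (45.7 kb below) and 4.61 and 5.35 (17.1 kb below). Within their lists the 4 regions stood at percentiles of at most 26.2. Cdk4 had 2 hCG-only regions, with folds of 3.97 and 4.63 inside Marchf9 and 3.57 and 3.43 inside Agap2, and 1 PMSG-only region, with 4.62 and 4.23 inside Os9. The 3 regions of Cdk4 all lay in neighbouring genes. Ccnd3 had 1 hCG-only region inside the gene, with 2.79 and 3.39, and 2 PMSG-only regions outside it, with 8.36 and 9.36 (45.2 kb below) and 8.21 and 7.01 (46.8 kb above). Ccnd2 and Ccne1 had 1 hCG-only region each, with folds of 6.65 and 5.16 and of 5.85 and 6.72, 4.11 kb and 20.5 kb below the gene.

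These counts move with the length of the lists. With 55654 intervals from every library, the length of the shortest list, 70 regions of the members were compared. Of these, 5 were hCG-only (7.14%) and 5 PMSG-only (7.14%), beside 15.3% and 13.4% of all regions.

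The comparison of WT with KO addressed which accessibility after hCG differs without the progesterone receptor. Of 96 regions, 9 were WT-only (9.38%) and 0 KO-only, beside 12.1% and 0.0802% of all 91017 regions. No test stands behind the count of 0. The WT lists are longer. With 55654 intervals from every library, 0 of 70 regions of the members were WT-only (0%) and 4 KO-only (5.71%), beside 4.25% and 4.15% of all regions. The 4 lay around Cdkn1c (2), Ccnd3 (1) and Cdkn1b (1). The direction of the presence calls thus depended on the length of the lists, and whether a longer list reflects depth was not tested.

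Cdkn1a had 3 WT-only regions with all peaks, and no member had any with lists of equal length. Their folds were 4.3 and 3.48 for chr17:29060805-29061266, which was also hCG-only, 6.22 and 5.45 for chr17:29123730-29123908 inside Rab44, and 6.58 and 4.24 for chr17:29147328-29148157. The last was held by all 4 LH libraries, with folds between 6.14 and 7.87. Ccne1 had 2 WT-only regions, 23.9 kb and 23.1 kb below the gene, with folds of 6.4 and 5.17 and of 4.17 and 5.53, and neither was held by an LH library. All PMSG and KO libraries held 3 of the Ccne1 regions, and the WT libraries 5 and 9. Ccnd3 had 2 WT-only regions, with 7.82 and 6 (45.2 kb below) and 2.54 and 2.57 (inside), and the first of them was also PMSG-only. Cdk4 had 1, with 4.08 and 6.05 (43.8 kb above), and Cdkn1c had 1, chr7:143475996-143476324, with 4.88 and 5.04 and an interval of 132 and 136 bp.

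Few shared regions separated WT from KO by rank. Of 52, 8 ranked higher in WT and 9 in KO (15.4% and 17.3%), beside 13.1% and 15.4% of all 48711 shared regions. The median difference, WT minus KO, was 0.202 points, and -0.548 over all shared regions. By width, 17 regions were wider in WT (32.7%) and 4 in KO (7.69%), beside 34.8% and 5.89% of all. Over whole lists the median interval was 425 and 394 bp in WT and 552 and 456 bp in KO.

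At the promoters, 0 of 9 ranked higher in WT and 2 in KO, beside 6.09% and 18.2% of all 12736 shared promoters. The second Cdkn1a start had folds of 7.94 and 7.68 in WT and 7.36 and 8.12 in KO, but rank percentiles of 29.9 and 24.2 in WT and 31.4 and 47.9 in KO. The folds overlap and the percentiles do not, because each percentile is taken within its own library, and KO 2 carried most of the difference of -12.6 points. A region 27.3 kb below Cdkn1a, chr17:29062840-29063728, ranked higher in KO as well, at 38.9 and 59.9 against 29.8 and 33.9, a difference of -17.5 points that 3.16% of shared regions reached. Without KO 2 the differences of these 2 regions were -4.35 and -7.05 points. Both of these Cdkn1a calls were the same by −log10 q. The other promoter higher in KO, at Ccnd2, differed by -2.64 points, and by -1.02 without KO 2 and -4.27 without KO 1, and was lost by −log10 q.

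Cdkn1b had 3 of the 8 regions higher in WT. The farthest region above the gene, which ranked higher in hCG than in PMSG, had folds of 17.2 and 20.1 in WT and 14 and 14.8 in KO, at percentiles of 94.3 and 97.3 against 87.9 and 91. The hCG-only region 20.5 kb above the gene had 10 and 15.7 in WT and 8.57 and 8.03 in KO, a difference of 19.9 points that 3.94% of shared regions reached, and WT 2 stood far above the rest at percentile 81.8. Without WT 2 the difference was 3.3 points. The third, 43.3 kb below the gene inside Crebl2 and Gpr19, had 7.85 and 10 against 6.6 and 5.35. Ranked by −log10 q the first and the third kept the call and the hCG-only region lost it. The regions 16.0 kb below and 28.4 kb above the gene, both higher in hCG than in PMSG, overlapped between WT and KO, with folds of 7.34 and 10 against 9.91 and 4.62 and of 10.7 and 12 against 9.77 and 12.1.

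**Figure D5:**
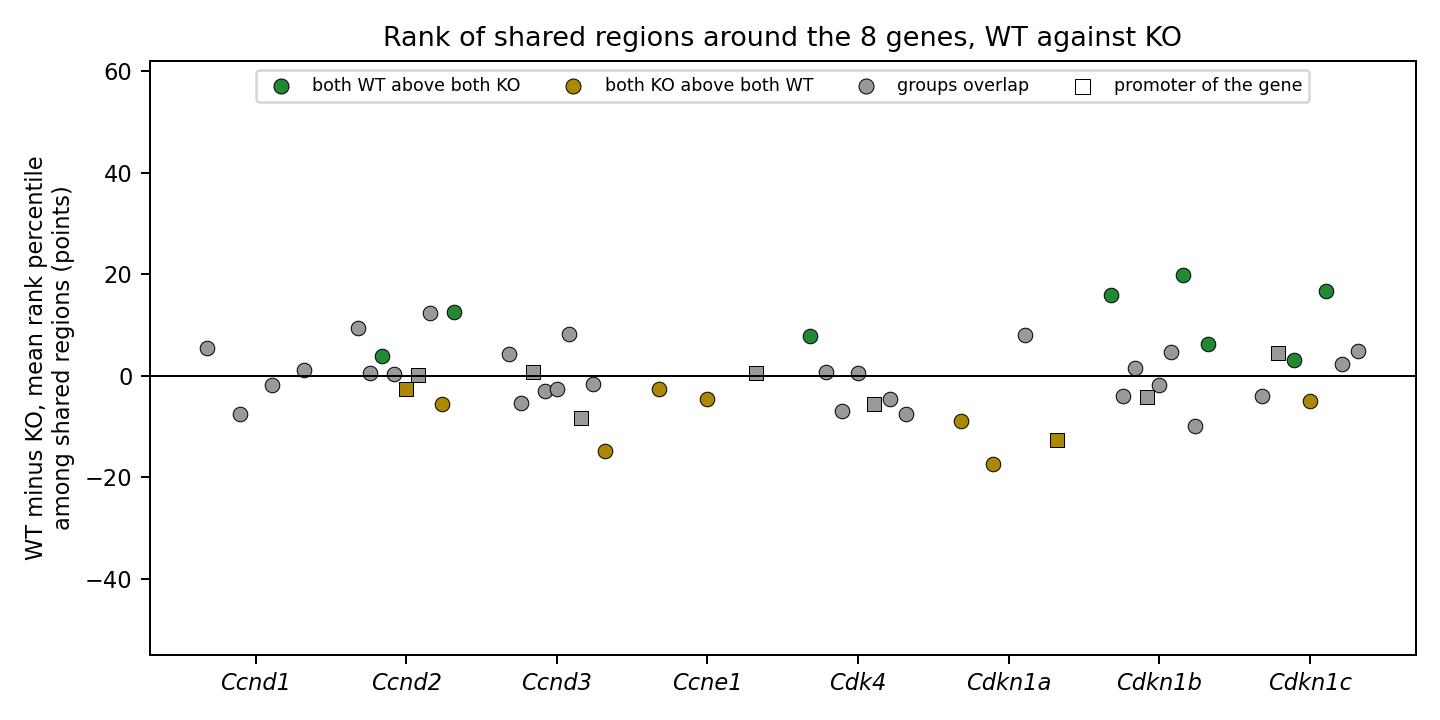
Difference in rank percentile, WT minus KO (y axis, percentile points among the shared regions), for each shared region in order of coordinate within each gene (x axis). Each point is 1 region as the mean of 2 libraries a group, squares are the gene's own promoter, and colours mark whether the libraries of the groups overlap. Most points are grey, no square is green, and no difference exceeds 20 points in either direction.

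Regions gained with hCG in the LH experiment were set beside their presence in the PR libraries, which share no sample with it. All 11 hCG-only regions of the members were held by at least 1 PR library, beside 92.8% of all hCG-only regions. Both WT libraries held 7 of them (63.6%, beside 78.5%) and both KO libraries 3 (27.3%, beside 41.5%). Of the 6 PMSG-only regions, both WT libraries held 2 (33.3%, beside 43%) and both KO libraries 0 (0%, beside 14.8%). The 3 hCG-only regions held by all 4 PR libraries lay at Cdkn1b (20.5 kb above), Cdkn1c (12.3 kb below) and Cdk4 (inside Marchf9). The hCG-only regions that were also WT-only were the ones of Cdkn1a and Cdkn1c named above.

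Other genes of the cell cycle were counted in the same way. A list of 47 genes by role, from other cyclins and kinases to INK4 inhibitors, pocket proteins, E2F factors and growth arrest genes, had 36 genes with an hCG-only region (76.6%, beside 54.6% of all genes) and 22 with a PMSG-only region (46.8%, beside 35.9%). By regions, 63 of 454 were hCG-only (13.9%) and 35 PMSG-only (7.71%), beside 17.6% and 10.3% of all regions and 12.9% and 7.06% of those around the 8 genes. In the PR experiment 23 of the 47 genes had a WT-only region (48.9%, beside 50.7% of all genes) and 0 a KO-only region (beside 0.453%). All 47 genes had a promoter region in all 8 libraries. Cdk6, the other kinase of the D cyclins, had the most regions on the list, 36, with 6 hCG-only and 4 PMSG-only. Ccnt1, a cyclin of transcription elongation, had 4 hCG-only regions of 16, and Cdc25a, a phosphatase that activates CDKs, had 3 of 13 and 4 WT-only regions. Cdk7, the CDK-activating kinase, had 3 PMSG-only regions of 11, as did Ccng2, an unconventional cyclin, of 12. Tfdp2, the partner of E2F factors, and Btg1, an antiproliferative gene, had 3 WT-only regions each, of 23 and 13.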

How the data were processed

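ATAC-seq peaks of 8 granulosa cell libraries were analysed, 2 in each of 4 groups, taken from the titles. The authors deposited 1 narrowPeak list per library, so replicates were called separately. Per the submitters' processing notes, Bowtie2, MACS2 and the build mm10 were used; versions, filters and any shift of reads for the Tn5 cut are not given in the sources used here. Peak names of the PR lists carry a prefix on filtering and marked duplicates which the LH lists lack, and the processing may thus have differed between the experiments. In the deposited lists, column 7 was taken for each summit's fold enrichment, a linear ratio over the caller's background, and column 9 for −log10 of its q-value, which was at least 10 throughout. The lists hold no read numbers, so depth is unknown. Calls rest on ranks within each library, and folds printed side by side are not normalized between libraries.

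Each interval was counted once and given the highest fold and the highest −log10 q of its summits. Regions were merged from the autosomes (1 to 19) and X, and distances run from the nearer end of the gene body. A promoter region overlapped the RefSeq window from 250 bases before to 50 after a start or, for Ccnd1, Ccnd2 and Cdkn1c, which are not in that table, lay within 1 kb of a gene end. The same rule set the promoters of all genes, so those of genes without a listed start can lie at either gene end. Regions in the text are those at a member's promoter, every group-only region, the strongest region of each gene, and others chosen after their values were seen. The 8 genes, the lists and the alternatives were chosen with earlier results of these data known. Alternatives were lists of equal length, a −log10 q of 20 or more, merging within an experiment, coverage of at least 50% of a region, windows of 10 kb and 100 kb, ranking by −log10 q or among regions of all 8 libraries, a replicate block, and leaving out each library. Same-numbered libraries deviated together by a correlation of 0.039 in the LH and -0.050 in the PR experiment, so the numbers were not taken as pairs. Replicates are pools of separate mice per the labels. Python 3.11.15, numpy 2.4.6, pandas 2.3.3 and matplotlib 3.10.9 were used.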

Additional observations from a re-analysis of the deposited data

How the results depend on the processing

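Lists of equal length gave 5 hCG-only, 0 WT-only and 4 KO-only regions in place of 11, 9 and 0. Their shares of 70 regions were 7.14%, 0% and 5.71%, beside 15.3%, 4.25% and 4.15% of all regions. A −log10 q of 20 or more gave 6 hCG-only regions of 71 (8.45%, beside 19.2% of all regions). Windows of 10 kb gave 4 hCG-only and 0 PMSG-only regions of 32 (12.5% and 0%, beside 17.6% and 10.3%) and 1 WT-only region of 37 (2.7%, beside 12.1%). By rank these windows, which hold the 9 promoters, gave 5 regions higher in hCG and 16 in PMSG of 22 (22.7% and 72.7%, beside 32.5% and 40.2%), and 2 in WT and 3 in KO (9.09% and 13.6%, beside 13.1% and 15.4%). Windows of 100 kb gave 17 hCG-only regions of 134 (12.7%, beside 17.6%), and 18 WT-only and 1 KO-only regions of 149 (12.1% and 0.671%, beside 12.1% and 0.0802%). Fewer or more regions in a window change these counts by construction. The shares of all regions given beside them are the same for each window and were not restricted to regions near genes. Ranking among regions of all 8 libraries gave 5 regions of 48 higher in WT (10.4%, beside 12.9%) in place of 8. Ranking by −log10 q gave 5 promoters higher in PMSG in place of 8 and 1 higher in KO in place of 2; of 40 LH calls by fold 27 were the same, 0 opposite and 13 lost, and of 17 PR calls 9 were the same, 1 (Ccne1) opposite and 7 lost. The replicate block, which asks for the same direction in both same-numbered pairs, gave 14 regions higher in WT and 13 in KO of 52 (26.9% and 25%, beside 20.9% and 25.3% of all), 17 in hCG and 25 in PMSG of 50 (34% and 50%, beside 36.4% and 44.5%), and 1 promoter of 9 higher in WT (11.1%, beside 13% of all promoters); the numbers do not pair these libraries. Merging within each experiment gave the same 4 counts of group-only regions.

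Leaving out each library, which loosens a call to 1 library against 2, raised most counts around the members and the shares over all regions. It gave 11 to 18 hCG-only, 6 to 9 PMSG-only, 11 to 22 WT-only and 0 to 0 KO-only regions, beside 19.8% to 22.2%, 11.6% to 13.8%, 16% to 24.9% and 0.314% to 0.614% of all regions. By rank it gave 18 to 20 regions higher in hCG, 26 to 28 in PMSG, 13 to 22 in WT and 13 to 24 in KO, beside 39% to 39.2%, 46.4% to 47.8%, 27.1% to 33.8% and 31.4% to 40.7%. The most hCG-only regions, 18 of 81 (22.2%, beside 22.2%), came without hCG 2, and the most WT-only, 22 of 87 (25.3%, beside 24.9%), without WT 1. The most by rank in WT and KO, 22 and 24 of 54 (40.7% and 44.4%, beside 33.8% and 40.7%), came without KO 1. Of the 9 promoters 1 ranked higher in hCG and 8 in PMSG without any 1 library, beside 23% to 26.3% and 58% to 62.3% of all promoters. Those higher in WT numbered 1 to 3 and those higher in KO 2 to 6, beside 10.3% to 31.6% and 29.3% to 59.2%. The 6 in KO (66.7%, beside 44.2%) came without WT 1, and the 3 in WT (33.3%, beside 25%) without WT 2. Depth is unknown, so a peak missing from a list is not shown to be closed chromatin.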

Other observations

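For Ccnd3, the member with the most regions, the share of its 18 regions held by each library was divided by that library's share of all regions. The ratio was 1.16 and 1.24 in PMSG, 1.1 and 0.887 in hCG, 0.907 and 1.13 in WT, and 0.842 and 1 in KO. Both PMSG values lay above both hCG values, and WT and KO overlapped. How many other genes show such an order was not counted. Among 15327 genes with at least 5 regions, those with the profile most like it over the 8 libraries were Tmem25, Ttc36 and Ube2j2, each with a Pearson r of 0.946. Each of the 3 has 5 regions, so their profiles take few values, and all profiles share the depth of the same 8 libraries.

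A few intervals had a fold far under that of the other libraries at the same region. Besides the Cdkn1c promoter in hCG 1, these included an intragenic Ccnd3 region, chr17:47507814-47508469, with a fold of 2.26 in PMSG 1 and between 4.21 and 6.22 in the other 7 libraries. That region had no call between hCG and PMSG. At the 2 Ccnd2 promoter regions the folds lay between 3.2 and 5.6 in all 8 libraries, while its −log10 q ranked between 21.8 and 64.6 among shared regions of the LH libraries.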
